A study of Oryza sativa Japonica Group with 6 samples.

Results

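The HOX genes of rice are described here across plants in which OsSKIPa, named in the series title as a splicing factor, was overexpressed, suppressed or left unaltered. Members were all probe sets of the Affymetrix rice array whose single annotated gene carries a symbol or synonym HOX followed by digits. The annotation held 27 such genes. Of these, 26 had a probe set, and HOX3 had none. The members were 34 of 57381 probe sets. All groups were rice (Oryza sativa) collected at 1 month of age, germinated on MS medium and moved to hydroponics at 10 days. The overexpression group consisted of transgenic plants with raised OsSKIPa, called S58S in the labels and selected on hygromycin. The suppression group consisted of transgenic plants with lowered OsSKIPa, called S59R and selected on G418. The wild type was the cultivar Zhonghua11, which carried no selection. With 2 arrays a group and 6 altogether, the number of arrays bounds how precise any value can be. The design text of the series names more replicates for suppression and the wild type than the 2 of each available here. The suppression arrays are numbered 1 and 3. The promoter driving either transgene and the number of independent transformants are not given in the sources used here. The effect of the line and that of its selection drug cannot be told apart.

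Plant HOX genes are not counterparts of the animal Hox clusters. Nearly all of them encode HD-Zip proteins, which join a DNA-binding homeodomain to a leucine zipper through which they bind DNA as dimers. Class I proteins are known for responses to water deficit and abscisic acid, class II proteins for responses to shade and auxin, and class III proteins for leaf polarity, vascular tissue and the shoot meristem, where their transcripts are kept in check by the microRNA miR166. Among the members, class I was represented by 16 probe sets of 12 genes, class II by 11 probe sets of 8 genes and class III by 6 probe sets of 5 genes. The remaining member, HOX1A, is also named HAZ1, and its gene does not belong to these 3 classes. HOX2 and HOX28, both of class II, are direct neighbours in the gene table, with 0 protein-coding genes between them.

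Values are signal intensities on a linear scale that had been brought to a common level, with a trimmed mean of 500.06 on every array and array medians between 58.6 and 66.2. A signal depends on the probes as well as on the transcript, so signals of different probe sets are not compared. No probe set is named for OsSKIPa in the tables used, so its signal was not analysed here; per the labels, the transgenic plants had been checked by real-time RT-PCR. The material is given as shoots in one label and as the whole plant in another. The leaf markers RBCS (small subunit of Rubisco), CAB2R (chlorophyll-binding protein) and GLK1 were bright on all arrays in 6 of 7 probe sets, with a summed signal of 91020.5 and 93349.6 in overexpression, 95981.4 and 87650.7 in suppression and 91703.5 and 97762.8 in the wild type. Most of that sum came from 3 probe sets. Of the 6 bright leaf probe sets, 3 had an unadjusted limma p under 0.05 in suppression against the wild type (17.8% of all tested probe sets). Of these 6, 0 were called, where 2.3% of all tested probe sets were. The log2 fold changes of the 3 were -0.51 and -0.51 for 2 probe sets of RBCS (limma adjusted p = 0.0738 and 0.0691) and -0.99 for GLK1 (limma adjusted p = 0.0566). The root markers Lsi1 and Lsi2, silicon transporter genes, were bright on all arrays too, and the summed signal of the 5 root marker probe sets was 4477 and 5376.1 in overexpression, 10658.7 and 6615.7 in suppression and 9305 and 5904.8 in the wild type. The overexpression arrays were thus the lowest in root marker signal. Their actin 3′ to 5′ signal ratio, a sign of RNA integrity, was also the highest, at 3.43 and 3.73 against 2.75 to 2.89 in the other arrays. The same ratio for GAPDH did not separate the overexpression arrays, which read 2.19 and 1.89 against 1.66 to 1.9 in the others. For 18S rRNA the control probe sets read 3673.9 and 3885.3 in suppression and 4949.6 to 5450.5 elsewhere. What part these differences had in the results that follow was not tested. Fewer cells of a type and less RNA per cell cannot be told apart in such samples.

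Testing required a signal over the array's own median on 2 or more of the 6 arrays. That held for 29 of the 34 HOX probe sets, which represent 24 genes. Of these, 28 lay above the median on all 6 arrays. The exception was HOX17, with 53.7 and 56.3 in overexpression, 41.6 and 60.2 in suppression and 99.1 and 50.6 in the wild type. The 5 untested probe sets read between 1 and 68.3. HOX14 and HOX24 were represented only among those. HOX24, a class I gene linked to drought and salt responses in rice, read 19.8 and 36 in overexpression, 50.3 and 9.8 in suppression and 57.4 and 10.3 in the wild type. Its arrays within each group differed more widely than the group means (27.9, 30.05 and 33.85).

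HOX12 was the member with a called difference, meaning an adjusted p under 0.05. In rice this class I factor is known to activate EUI1, which encodes a gibberellin-inactivating enzyme, and to act on panicle exsertion. Its single probe set (gene LOC4331956) read 221.7 and 168.9 in overexpression, 152.7 and 136.9 in the wild type and 70.4 and 59.5 in suppression. The 3 groups did not overlap, and the suppression arrays were the lowest, close to the array median. The log2 fold change of HOX12 between overexpression and suppression was 1.53 ± 0.28 (SE; 95% interval 0.89 to 2.17; limma adjusted p = 0.0194), a ratio of mean signals of 3.01. Fold changes are of log2(signal + 3.3), which understates the change of dim probe sets.

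Neither transgenic group differed from the wild type in HOX12 past the threshold. The log2 fold change was -1.12 ± 0.28 in suppression (95% interval -1.76 to -0.48, limma adjusted p = 0.0854) and 0.41 ± 0.28 in overexpression (-0.23 to 1.05, limma adjusted p = 0.802). Both of these comparisons use the same 2 wild-type arrays. The difference between the transgenic groups lost its call without overexpression replicate 1 (1.34, limma adjusted p = 0.113), overexpression replicate 2 (1.73, adjusted p = 0.0716), suppression replicate 1 (1.65, adjusted p = 0.0547) or suppression replicate 3 (1.42, adjusted p = 0.066), and kept its direction in each. The adjusted p ranged from 0.0182 to 0.129 over 14 alternative settings, 8 of which kept the call.

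**Figure D1:**
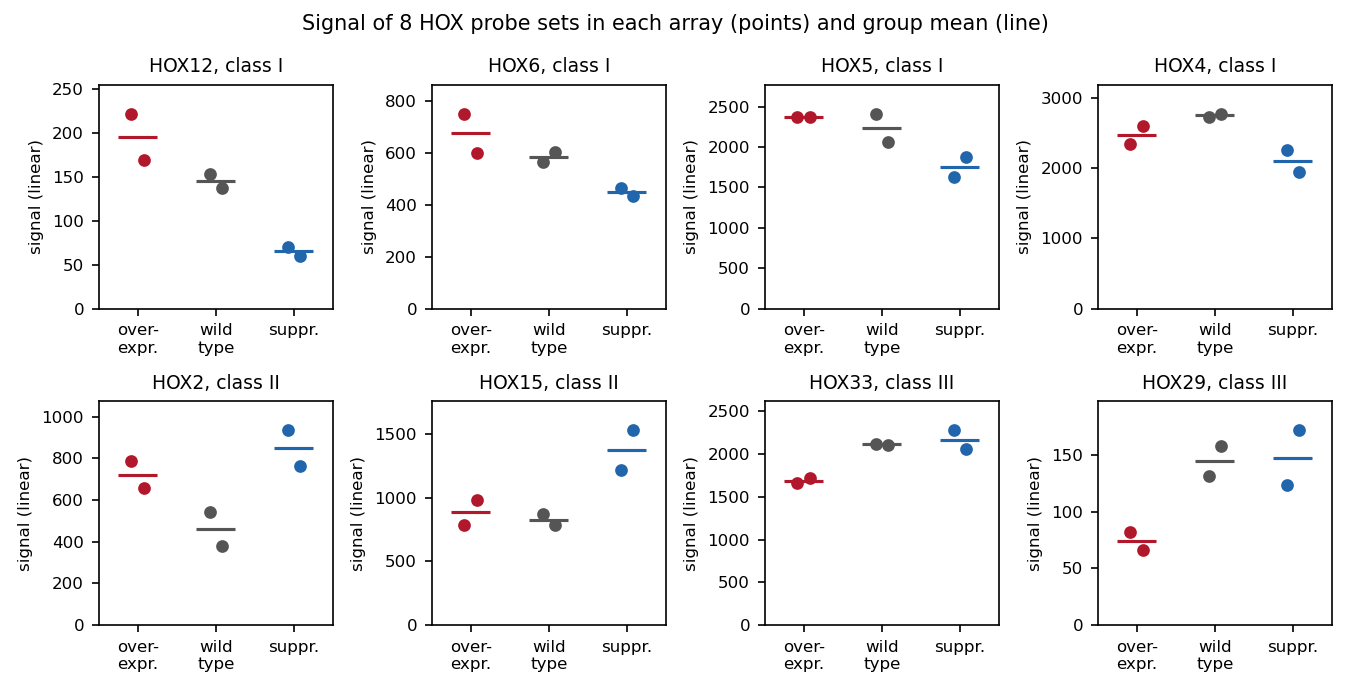
Signal intensity (linear scale, from 0) of 8 HOX probe sets in each of the 6 arrays. Points are arrays and lines are means of the 2 arrays of overexpression (red), wild type (grey) and suppression (blue). HOX12 lies between 59.5 and 70.4 in suppression and at or above 136.9 elsewhere, HOX2 is lowest in the wild type, and HOX29 and HOX33 are lowest in overexpression.

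Across the other HOX members no difference was called. Against the wild type, 0 of 29 HOX probe sets were called by limma in overexpression, where 0.0494% of all tested probe sets were, and 0 of 29 in suppression, where the background was 2.3%. Between overexpression and suppression 1 of 29 was called, against 6.56% of all tested probe sets (3.63% higher and 2.93% lower in overexpression). At an unadjusted p under 0.05 the limma counts were 6 of 29 in overexpression (background 7.11%), 7 of 29 in suppression (17.8%) and 9 of 29 between the transgenic groups (23.1%). The groups did not overlap for 11, 13 and 16 of the 29, where 38.1%, 48.7% and 53.5% of all tested probe sets did not overlap, so the separation of HOX groups was near the background in each comparison. The median log2 fold change of the HOX probe sets was 0.08 in overexpression, -0.04 in suppression and -0.01 between the transgenic groups, beside -0.01, -0.02 and 0.01 over all tested probe sets.

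The intervals limit how large a change could have gone uncalled. The 95% interval lay within 2-fold either way for 21 of 29 HOX probe sets in overexpression against the wild type, for 21 in suppression and for 23 between the transgenic groups (74.6%, 70.3% and 68.2% of all tested probe sets). The spread between the 2 arrays of a group was a median of 0.26 log2 units in overexpression, 0.21 in suppression and 0.17 in the wild type for HOX probe sets, and 0.19, 0.2 and 0.18 for all tested probe sets.

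**Figure D2:**
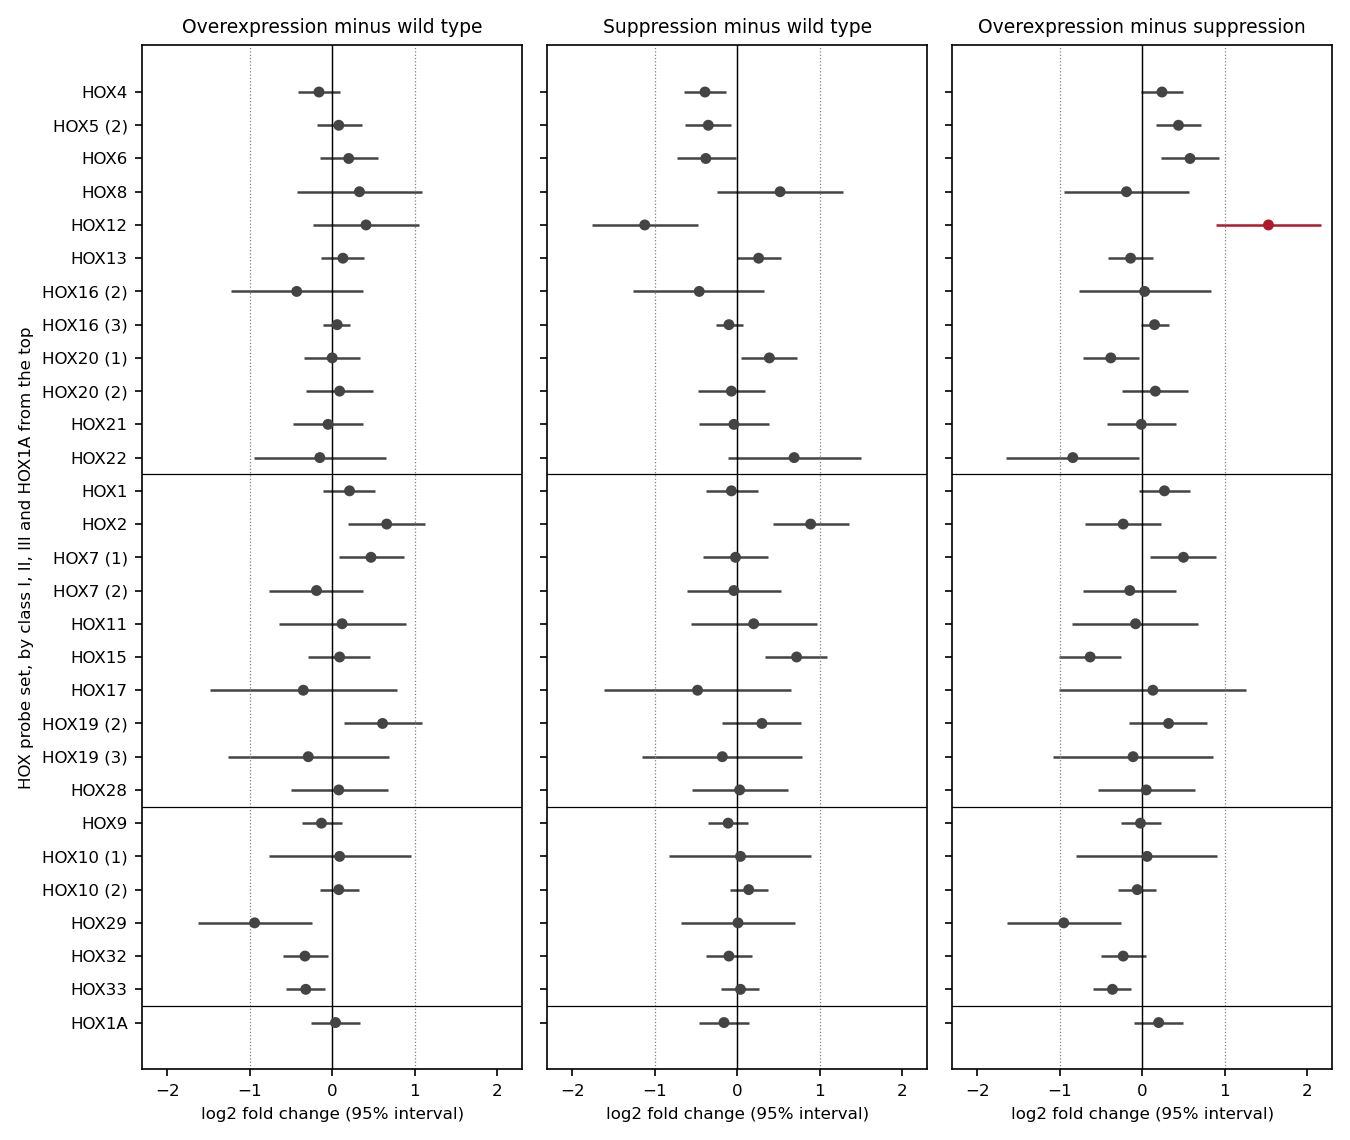
Log2 fold change (horizontal axis, points) and its 95% interval (lines) for the 29 tested HOX probe sets in the 3 comparisons, ordered by class from the top, with dotted lines at 2-fold either way. A number in brackets tells apart the probe sets of a gene that has several. HOX12 between overexpression and suppression, in red, is the probe set with a called difference.

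In class I, 12 probe sets of 10 genes were tested. HOX4, which represses gibberellin responses in rice, read 2251.5 and 1944.9 in suppression and 2731.4 and 2771 in the wild type, with 2342.2 and 2598.4 in overexpression. Its log2 fold change in suppression was -0.39 ± 0.11 (limma adjusted p = 0.117), and its suppression arrays lay below all others. The tested probe set of HOX5 read 1626.8 and 1873.2 in suppression, 2411.8 and 2065.3 in the wild type and 2365.8 and 2368.1 in overexpression, so the wild type and overexpression overlapped above suppression.

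The log2 fold change of HOX5 was -0.35 ± 0.12 in suppression against the wild type (limma adjusted p = 0.177) and 0.44 ± 0.12 between overexpression and suppression (limma adjusted p = 0.0679). HOX6, a gene that responds to drought in rice, read 749.2 and 599.1 in overexpression, 564.3 and 601.9 in the wild type and 463.2 and 432.2 in suppression. Its difference between the transgenic groups was 0.58 ± 0.15 (limma adjusted p = 0.0643). HOX4, HOX5 and HOX6 were thus lowest in both suppression arrays, and none of these differences passed the threshold.

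Other class I members lay the other way. HOX20 read 464.2 and 527.8 in suppression and 375.9 to 380.5 in the other 4 arrays, a log2 fold change of 0.39 ± 0.15 against the wild type (limma adjusted p = 0.228). Its other probe set, which may also bind similar sequences, did not follow, with -0.07 ± 0.18. HOX22, which acts on abscisic acid synthesis and drought and salt responses in rice, read 353 and 260.8 in suppression, 216.6 and 160 in the wild type and 116.1 and 241.2 in overexpression, where the arrays spread widely. Its log2 fold change in suppression was 0.69 ± 0.35 (limma adjusted p = 0.35), and its 95% interval ran from -0.11 to 1.5. HOX13 read 0.26 ± 0.12 and HOX8 0.52 ± 0.33 there. One HOX16 probe set stayed between 10416.4 and 12085.9, with 0.06 ± 0.07 in overexpression and -0.10 ± 0.07 in suppression, and the other tested one gave -0.43 ± 0.35 and -0.46 ± 0.35. HOX21 gave -0.05 ± 0.18 and -0.04 ± 0.18. The probe sets of HOX8 and HOX21 and the HOX16 probe set at -0.43 and -0.46 may also bind similar sequences. Of the 12 class I probe sets, 4 had estimates above 0 and 8 below 0 in suppression, and 8 above and 4 below in overexpression.

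**Figure D3:**
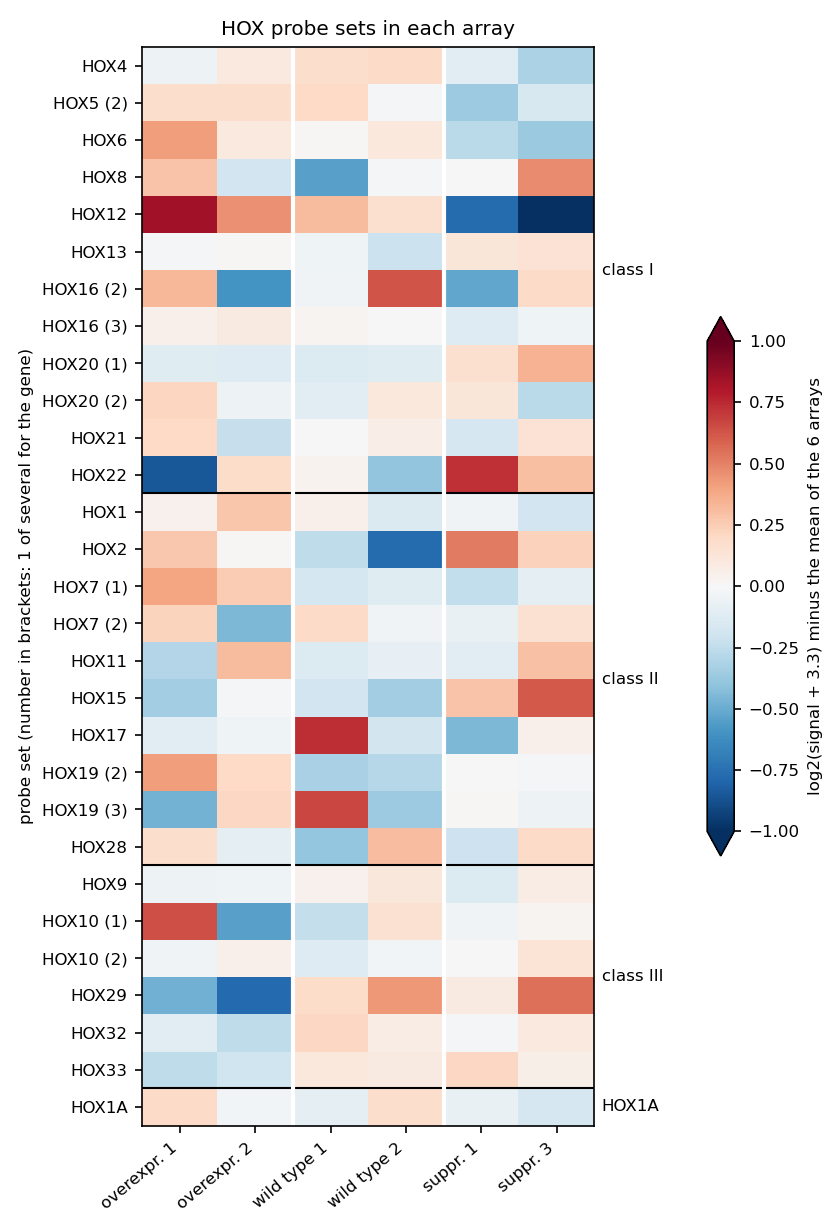
Each of the 29 tested HOX probe sets (rows, by class) in each of the 6 arrays (columns), coloured by log2(signal + 3.3) minus the mean of the 6 arrays for that probe set. HOX12 is high in the overexpression arrays and low in the suppression arrays, and the rows of HOX10, HOX16 and HOX19 include a probe set whose 2 arrays of a group differ widely.

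In class II, 10 probe sets of 8 genes were tested. HOX2 had the smallest p of all members in both comparisons with the wild type. It read 544.4 and 380 in the wild type, 786.2 and 656.6 in overexpression and 934.3 and 764 in suppression, so both transgenic groups lay above both wild-type arrays. The log2 fold change was 0.66 ± 0.20 in overexpression (95% interval 0.19 to 1.12, limma adjusted p = 0.617) and 0.89 ± 0.20 in suppression (0.43 to 1.35, limma adjusted p = 0.0661). The 2 comparisons share the wild-type arrays, and the transgenic groups themselves differed by -0.23 ± 0.20 (limma adjusted p = 0.541). Its neighbour HOX28 stayed between 265.4 and 432.4 with no order among the groups, at 0.08 ± 0.26 in overexpression and 0.03 ± 0.26 in suppression.

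HOX15 read 1214 and 1528 in suppression, 872.4 and 782.3 in the wild type and 783.9 and 982.8 in overexpression. The suppression arrays lay above the others, among which the 2 groups overlapped. The log2 fold change was 0.72 ± 0.16 in suppression against the wild type (95% interval 0.34 to 1.09, limma adjusted p = 0.067), 0.09 ± 0.16 in overexpression (limma adjusted p = 0.942) and -0.63 ± 0.16 between the transgenic groups (limma adjusted p = 0.0586). Its probe set is of a type that can match transcripts of more than 1 gene.

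Both HOX7 and HOX19 lay higher in overexpression by 1 probe set and not by another. HOX7 read 364.5 and 329.5 in overexpression and 232.3 to 257.7 in the other 4 arrays by one probe set (0.47 ± 0.17 against the wild type, limma adjusted p = 0.662), and -0.19 ± 0.25 by the other. HOX19 read 246.8 and 211.8 in overexpression and 146.4 and 150 in the wild type (0.61 ± 0.21, limma adjusted p = 0.638), with 184.1 and 181.4 in suppression. This HOX19 probe set may also bind similar sequences. The other tested HOX19 probe set gave -0.29 ± 0.42. HOX1, known to promote vascular cell fate, read 0.21 ± 0.14 in overexpression and -0.07 ± 0.14 in suppression. HOX11 gave 0.12 ± 0.33 and 0.20 ± 0.33, and HOX17 gave -0.35 ± 0.49 and -0.48 ± 0.49. The probe sets of HOX11 and HOX17 and the HOX7 probe set at -0.19 may also bind similar sequences.

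In class III, 6 probe sets of 5 genes were tested, and 3 had an unadjusted p under 0.05 in overexpression against the wild type, all lower, and 0 in suppression (background 7.11% and 17.8% in either direction). HOX33, whose silencing hastens leaf senescence in rice, read 1656.3 and 1720 in overexpression, 2122.4 and 2101.5 in the wild type and 2278.4 and 2058.7 in suppression. Its log2 fold change in overexpression was -0.32 ± 0.10 against the wild type (95% interval -0.56 to -0.09, limma adjusted p = 0.622) and -0.36 ± 0.10 against suppression (-0.59 to -0.13, limma adjusted p = 0.0759). HOX32, known for its effect on leaf rolling, read 984 and 889.4 in overexpression, 1227.7 and 1122.6 in the wild type and 1056.3 and 1136.4 in suppression, a fold change of -0.33 ± 0.12 on the log2 scale in overexpression (limma adjusted p = 0.662). The overexpression arrays were the lowest for both genes.

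HOX29 showed the widest class III difference. It read 82.3 and 66.3 in overexpression, 131.8 and 157.9 in the wild type and 123.4 and 171.8 in suppression, and the overexpression arrays lay below all others. The log2 fold change was -0.94 ± 0.30 in overexpression against the wild type (95% interval -1.63 to -0.24, limma adjusted p = 0.629) and -0.95 ± 0.30 against suppression (limma adjusted p = 0.104). The 2 remaining genes, HOX9 and HOX10, which are also named OsHB2 and OsHB1 and act in the shoot meristem and leaf polarity, differed little. HOX9 read 2015.8 to 2394.7 on the 6 arrays, and the brighter HOX10 probe set 2392.8 to 2871.9. In suppression, all 6 class III estimates lay between -0.11 and 0.14, and all 6 intervals lay within 2-fold either way. In overexpression, 4 of 6 estimates lay below 0, with a median of -0.22 (15490 of 30366 and -0.01 over all tested probe sets). Root marker signal was also lowest and the actin 3′ to 5′ ratio highest in the overexpression arrays. The GAPDH ratio did not separate those arrays. The part of these differences in the class III values was not tested.

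HOX1A read 1704.1 and 1468.4 in overexpression, 1403.3 and 1685.4 in the wild type and 1420 and 1332.2 in suppression. Its log2 fold change was 0.04 ± 0.13 in overexpression and -0.16 ± 0.13 in suppression.

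**Figure D4:**
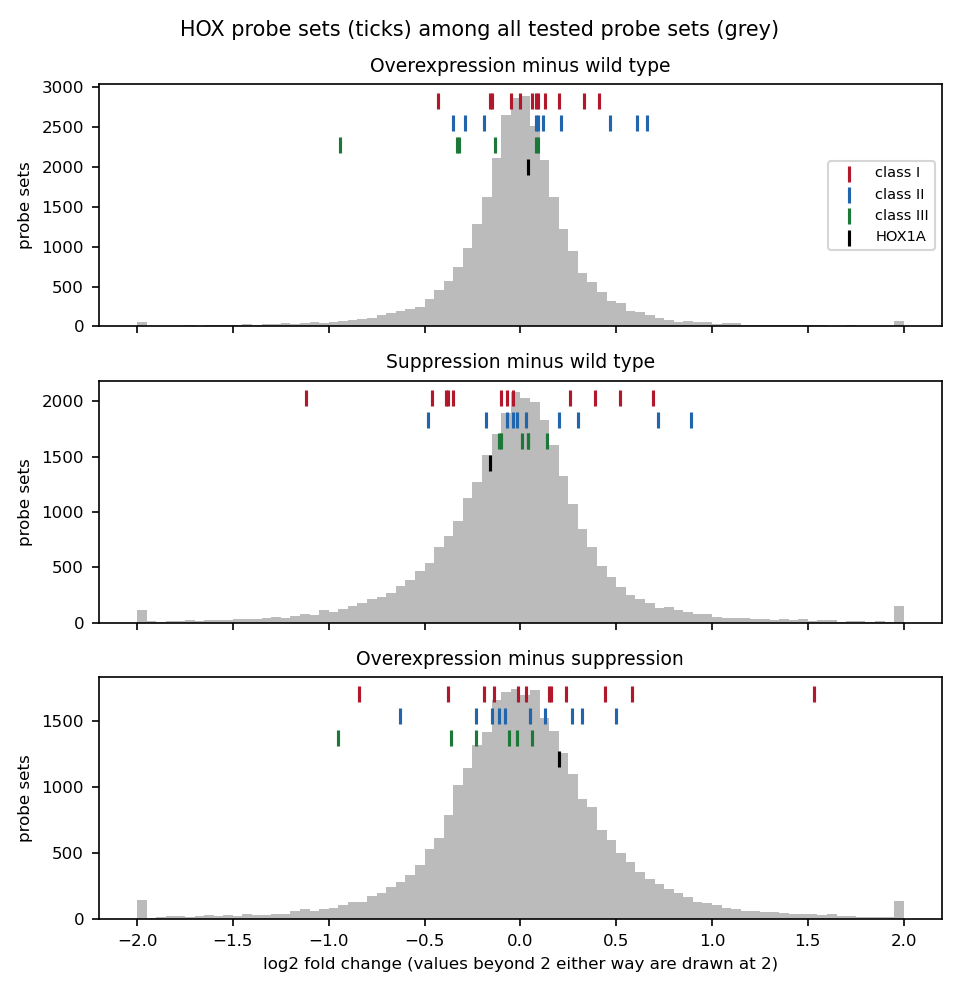
Distribution of log2 fold changes over all 30366 tested probe sets (grey bars, number of probe sets) in the 3 comparisons, with each tested HOX probe set as a tick coloured by class. The HOX ticks spread over the bulk of the distribution, and HOX12 at 1.53 lies toward its edge between overexpression and suppression.

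In other homeobox families, none of the 6 tested probe sets of the HD-Zip class IV genes (ROC genes, which act in the epidermis), 10 of the KNOX genes (meristem maintenance) or 4 of the WOX genes (stem cell niches and roots) was called by limma in any of the 3 comparisons. At an unadjusted p under 0.05, which 7.11% of all tested probe sets reached in overexpression, 17.8% in suppression and 23.1% between the transgenic groups, 0 class IV probe sets passed in any comparison, 1 KNOX probe set passed between the transgenic groups, and 1 WOX probe set passed in each comparison with the wild type. That one was WOX6, with 105 and 98 in the wild type, 49.2 and 49.1 in overexpression and 41.8 and 56.8 in suppression (limma adjusted p = 0.692 and 0.252). Its probe set lay above the array median only in the wild type and was tested through those 2 arrays, so these p-values are no support for a difference. In the list of leaf polarity genes linked to class III, which holds YABBY genes and SHL2 among others, 0 of 12 probe sets were called by limma in any comparison, and 1 had an unadjusted p under 0.05, between the transgenic groups.

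Of the genes of gibberellin synthesis and signalling, none of 10 tested probe sets of 9 genes was called by limma in any comparison, and 0, 1 and 2 had an unadjusted p under 0.05 in overexpression, in suppression and between the transgenic groups (background 7.11%, 17.8% and 23.1%). EUI1 read 81.5 and 110.2 in overexpression, 151.7 and 129.8 in the wild type and 142.7 and 103.3 in suppression. Its log2 fold change was -0.20 ± 0.31 in suppression (95% interval -0.90 to 0.50), where HOX12 read lowest, and -0.35 ± 0.31 between overexpression and suppression (limma adjusted p = 0.55). The order of the group means differed between HOX12 and EUI1. The summed signal of 14 probe sets of panicle and flower MADS genes was 1933.7 and 3415 in overexpression, 3106.4 and 1402.2 in suppression and 5935 and 3356.1 in the wild type, so it overlapped between the transgenic groups. Of the 14, 3 lay above and 5 below the median on every array, and 0 of the 9 tested were called by limma in any comparison. These 9 probe sets represent only 4 genes, and most belong to MADS14 or MADS15, so their estimates do not count as 9 separate genes. MADS3, MADS6, MADS7 and MADS8 had no tested probe set. All 9 estimates lay below 0 against the wild type in both transgenic groups, with medians of -1.16 in overexpression and -1.48 in suppression. Of the 9, 1 in overexpression and 5 in suppression had an unadjusted p under 0.05. HOX2 read above both wild-type arrays on all 4 transgenic arrays. The summed MADS signal did not separate the arrays in that way. Overexpression replicate 2 (3415) lay above wild-type replicate 2 (3356.1). The leaf marker GLK1, a chloroplast development regulator, was lower in suppression than in overexpression, with 756.4 and 703.1 against 1475.1 and 1964.6 (limma adjusted p = 0.0169). That call was lost without overexpression replicate 2 or either suppression array (1.01 to 1.43, adjusted p up to 0.102). The part of these markers in the HOX12 and HOX2 values was not tested.

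Of the phytochrome genes, whose light signals regulate class II genes in Arabidopsis, PHYA fell in suppression by 1 of its 2 probe sets, where 1.34% of all tested probe sets were called lower. That probe set read 525.5 and 500 in suppression, 841.5 and 924.7 in the wild type and 954.9 and 888.7 in overexpression, a log2 fold change of -0.78 ± 0.13 (limma adjusted p = 0.0227). The other read -0.40 ± 0.14 there (limma adjusted p = 0.205). Between overexpression and suppression PHYA was called by both, at 0.84 ± 0.13 (limma adjusted p = 0.0102) and 0.74 ± 0.14 (limma adjusted p = 0.0243). PHYB and PHYC were not called. Leaving out any 1 of the suppression or wild-type arrays ended the call in suppression (-0.85 to -0.71). The calls between the transgenic groups were lost without either overexpression array for the former probe set, and without overexpression replicate 1 or suppression replicate 1 for the latter.

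In rice, HOX1 and HOX28 are known to lower HSFA2D, a gene of the shoot gravitropism pathway that sets tiller angle. In the gene table HSFA2D shares its entry with ARD2, so which of the 2 names a probe set measures is not settled. The dimmer of its 2 probe sets read 363.3 and 269.7 in suppression, 591.4 and 676.1 in the wild type and 480.6 and 438.8 in overexpression, a fall of -1.01 ± 0.18 on the log2 scale in suppression (limma adjusted p = 0.0334). The brighter read 0.11 ± 0.12. HOX1 and HOX28 themselves read -0.07 ± 0.14 and 0.03 ± 0.26 there. The HSFA2D call was lost without suppression replicate 3, either wild-type array or either overexpression array (-1.22 to -0.79), and in 9 of 14 alternatives in all. LA1, the LAZY1 gene, was not called. In the pathway list 1 of 6 probe sets was called lower in suppression (background 1.34%), and 1 was called lower in overexpression than in suppression (background 2.93%). The latter belongs to a gene matched as LPA1, an abbreviation used for more than 1 rice gene, and is not described further.

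In the abscisic acid and drought list, which holds genes of the responses class I is known for, calls went both ways. Of 12 probe sets, 0 were called by limma in either comparison with the wild type (2 and 4 had an unadjusted p under 0.05, background 7.11% and 17.8%), and 5 were called between the transgenic groups (background 6.56%), 2 higher and 3 lower in overexpression. The dehydrin gene RAB21 was higher in overexpression by both probe sets, at 1.89 ± 0.44 (limma adjusted p = 0.0429) and 1.11 ± 0.26 (limma adjusted p = 0.045). The brighter read 1053.8 and 914.2 in overexpression, 583.9 and 685.6 in the wild type and 472.7 and 145.8 in suppression. The dehydrin genes RAB16C (-1.55 ± 0.34, limma adjusted p = 0.0359) and LIP9 (-0.61 ± 0.11, limma adjusted p = 0.0193) and the transcription factor gene BZIP23 (-0.90 ± 0.16, limma adjusted p = 0.0167), an activator of drought responses, were lower in overexpression than in suppression. Against the wild type, RAB16C read 1.19 ± 0.34 in suppression and -0.35 ± 0.34 in overexpression. BZIP23 read 0.68 ± 0.16 and -0.22 ± 0.16 there, and this LIP9 probe set 0.27 ± 0.11 and -0.34 ± 0.11, all uncalled. The other 2 tested probe sets of LIP9 were not called (-1.91 ± 0.6, limma adjusted p = 0.102, and -0.34 ± 0.41, limma adjusted p = 0.68). Both lay below the array median in overexpression (18.2 and 28.9, and 54.8 and 49.8). They were tested through arrays of the other groups, so these estimates are no support for a difference.

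Related dehydrin genes thus lay in opposite directions between the transgenic groups. The call of BZIP23 was lost without either overexpression array or suppression replicate 1 (-1.12 to -0.68), and that of LIP9 without overexpression replicate 2 or either suppression array (-0.69 to -0.53). The calls of RAB16C (-1.96 to -1.13) and of the dimmer RAB21 probe set (0.76 to 1.46) were lost without suppression replicate 3, either overexpression array or either wild-type array. That of the brighter RAB21 probe set (1.05 to 2.72) was lost without either overexpression or either wild-type array.

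**Figure D5:**
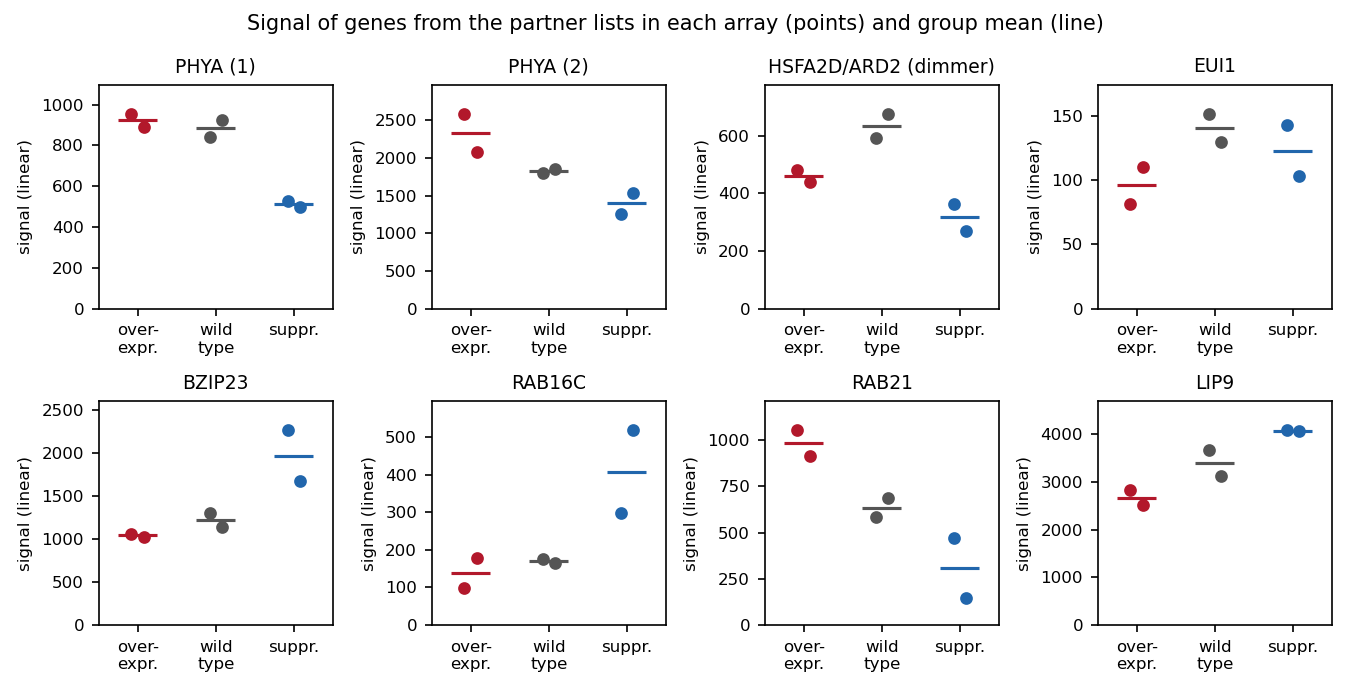
Signal intensity (linear scale, from 0) of 8 probe sets of light, gravitropism, gibberellin and drought genes in each of the 6 arrays. Points are arrays and lines are means of the 2 arrays of overexpression (red), wild type (grey) and suppression (blue). PHYA and RAB21 are lowest in suppression, BZIP23, RAB16C and LIP9 are highest there, and EUI1 overlaps between suppression and the wild type.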

How the data were processed

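The deposited values are signal intensities on a linear scale, 1 per probe set and array. How the authors summarised probes is not stated in the sources used here, and the common trimmed mean was read from the values. Groups were taken from the sample titles. The arrays are labelled as biological repeats, with no word on separate cultures; p-values measure only the spread between these arrays.

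The log2 transform of the deposited values used a pseudocount of 3.3, their 10th percentile. The 123 control probe sets were left out, 30366 probe sets were tested and 26892 were too dim. All 3 groups shared 1 fit in limma 3.58.1 (R 4.3.3), with eBayes and a variance trend, which left 3 residual degrees of freedom and added 5.21 from the prior. Two-sided p-values received Benjamini-Hochberg adjustment over all tested probe sets and a threshold of 0.05. The code was tested on simulated data.

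Gene names come from the array platform's annotation, updated by a table of RefSeq genes (assembly ASM3414082v1) that also gave neighbours. Of the probe sets, 22436 had 1 gene, 95 several, and 34727 were not listed. Genes of the partner lists were matched by symbol or synonym; the BELL list had 0 matches. The members, classes and lists were chosen with earlier results of these data known. Every member could be named. Full statistics were kept for called members and for the 6 with the smallest p in each comparison; other members are given by values and estimates, except HOX22, whose interval and adjusted p were added after its values were seen. Of the partner lists, called genes were named; EUI1, WOX6, LA1, PHYB and PHYC were named after their values were seen.

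Repeat numbers were not used as pairs, since the labels do not say that they mark a shared batch. Same-numbered overexpression and wild-type arrays did not deviate together (correlation of deviations -0.015 across probe sets). Suppression replicate 1 gave -0.001 with wild-type replicate 1 and -0.066 with overexpression replicate 1. Alternatives were other pseudocounts, filters, scaling, variance settings, samples in the fit, a replicate block and leaving out each array.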

Additional observations from a re-analysis of the deposited data

Results flagged for a closer look

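HOX12 is the member whose changes in the 2 transgenic groups differed by the test of the difference itself: the log2 fold change was 1.53 between overexpression and suppression. Each group alone did not pass against the wild type, and the call rested on all 4 transgenic arrays, since it was lost without any 1 of them.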

How the results depend on the processing

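Over 14 alternative settings, 18 HOX differences were fitted again, 252 fits in all. Only HOX12 between overexpression and suppression had been called in the main fit. The rest were uncalled and chosen for a small p, so their staying uncalled in the same direction does not measure stability. Of the 252 fits, 246 stayed on the same side of the threshold, and 0 changed direction. The other 6 were losses of the HOX12 call between overexpression and suppression. The HOX count of 1 in that comparison became 0 with eBayes without the variance trend (adjusted p = 0.0591) and 0 with the replicate block (log2 fold change 1.55, adjusted p = 0.129), and lay between 0 and 1 when single arrays were left out. Both comparisons with the wild type kept a count of 0 HOX calls in every setting run. Over all probe sets, the 15 calls in overexpression became 0 without the variance trend (2019 with an unadjusted p under 0.05) and 5 to 36 with 1 array left out, the fewest when overexpression replicate 1 and the most when wild-type replicate 2 was dropped. The 698 calls in suppression became 425 without a filter, 26 without the trend, 99 with the replicate block and 171 to 583 with 1 array left out. The 1992 calls between the transgenic groups became 1255, 69, 319 and 463 to 1410 under the same changes. Losses over 1.5 times followed from dropping any suppression or wild-type array for suppression (325, 366, 197 and 171) and any transgenic array between the transgenic groups (752, 463, 733 and 1018). The block uses repeat numbers that do not pair the arrays, and leaves few degrees of freedom. Suppression replicate 3 is the only array with its number, so the block fits it exactly. The suppression estimates with the block thus rest on suppression replicate 1 alone. With 1 array left out, the remaining one is assumed to vary like the other groups. Quantile scaling moved the median of all fold changes by less than 0.1. All 11 calls among partner and marker probe sets were lost without the variance trend and with the replicate block, and 5 of them (HSFA2D, LPA1, RAB16C and both of RAB21) also without a filter and in a fit of only the 2 groups compared.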
